A study of Mus musculus with 14 samples.

Results

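The comparison set 3 libraries of male against 3 libraries of female PiC neurons that project to MeA. These were the 6 libraries labelled PiC-MeA among the 14 of the series, whose other 8 libraries hold PiC neurons labelled from PrL. Only genes on autosomes were compared, 50957 of the 55401 genes in the table, and the filter, the scaling and the fit used these 6 libraries alone. After the filter 12607 autosomal genes were tested.

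Each library was made from a tube of 4 to 5 EGFP-positive neurons drawn by micropipette, and its polyadenylated RNA was amplified with SMART-Seq2, which reads transcripts along their whole length. All mice were wild-type C57BL/6 and all carried the same rAAV infection, 0.1 µl of AAVretro-EGFP placed in MeA, so no uninfected neurons entered the comparison. AAVretro is a virus that enters axon terminals and travels back to the cell body, and a labelled cell is therefore one whose axon reached the injected area. PiC, MeA and PrL are given as the labels have them. No age is recorded for the mice in the sources used here. The labels leave unsaid whether each tube stands for an animal of its own, and p-values therefore cover only tube-to-tube spread. The series' title concerns how sex hormones and networks of transcription factors shape expression that differs by sex.

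Sex can shape neurons through gonadal steroids, which bind receptors that act as transcription factors, and through genes on the sex chromosomes. Estrogen receptors bind DNA as pairs, each partner reading a short motif, and recruit coactivators to nearby genes. Aromatase, made by some brain neurons, converts testosterone to estradiol locally. The medial amygdala and the circuits that feed it are known for sex differences in social and reproductive behaviour. In a pool of so few cells, a marker can also come from a neighbouring cell drawn in with the labelled ones, and fewer cells of a type cannot be told apart from less RNA per cell.

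The labelled sex was checked on Y-linked genes, which were outside the comparison. Eif2s3y had 1084, 1449 and 136 counts in the male libraries and 3, 0 and 0 in the female ones, and Ddx3y had 466, 1524 and 1000 against 0 in each female library. Xist, the noncoding RNA that coats the inactive X, had 0 counts in all 14 libraries and so checked nothing. Neurons were present in every tube, with Camk2a, a kinase of excitatory neurons, at 1051 to 1518 CPM in female and 218 to 2068 CPM in male libraries. CPM is used here for counts relative to each library's autosomal total after TMM scaling, a method that lines up libraries on the bulk of their genes. Summed levels of marker lists are the exception and are given without TMM scaling.

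On each of 6 library measures the male libraries stood apart from the female ones before any gene was tested. The labels do not say whether the 6 libraries were prepared and sequenced together, so a difference of preparation between these groups cannot be told apart from sex in any male minus female value. Total counts were 11755389 to 13818625 in the female and 6132985 to 10572618 in the male libraries, yet 13120 to 14290 autosomal genes had a count in female libraries and 18130 to 19083 in male ones. With each library thinned to 4932575 autosomal counts the ranges were 11929 to 12756 and 17228 to 18814. The mitochondrially encoded share of counts was 3.29% to 3.95% in the female libraries and 4.80%, 9.23% and 15.3% in male replicates 1 to 3. Olfactory receptor genes, named for odour detection in the nose, had a count in 46 to 71 genes per female and 203 to 265 per male library. None of the 6 measures compared overlapped between the groups, and each gave p = 0.1 in an exact two-sided permutation test, the smallest that 3 against 3 allows. The 8 PiC-PrL libraries, male ones included, had 39 to 77 olfactory receptor genes with a count. Male replicate 3 had the lowest total and the lowest rank correlations with the female libraries, 0.573 to 0.599, against 0.729 to 0.740 among the female libraries. Male replicate 1 had 0.736 to 0.755 with the female libraries, 0.692 with male replicate 3 and 0.793 with male replicate 2, the highest of all pairs. Its rank correlations with the female libraries therefore lay between those with male replicates 3 and 2. The part of these measures in the gene results was not tested beyond the fits named with them.

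**Figure D1:**
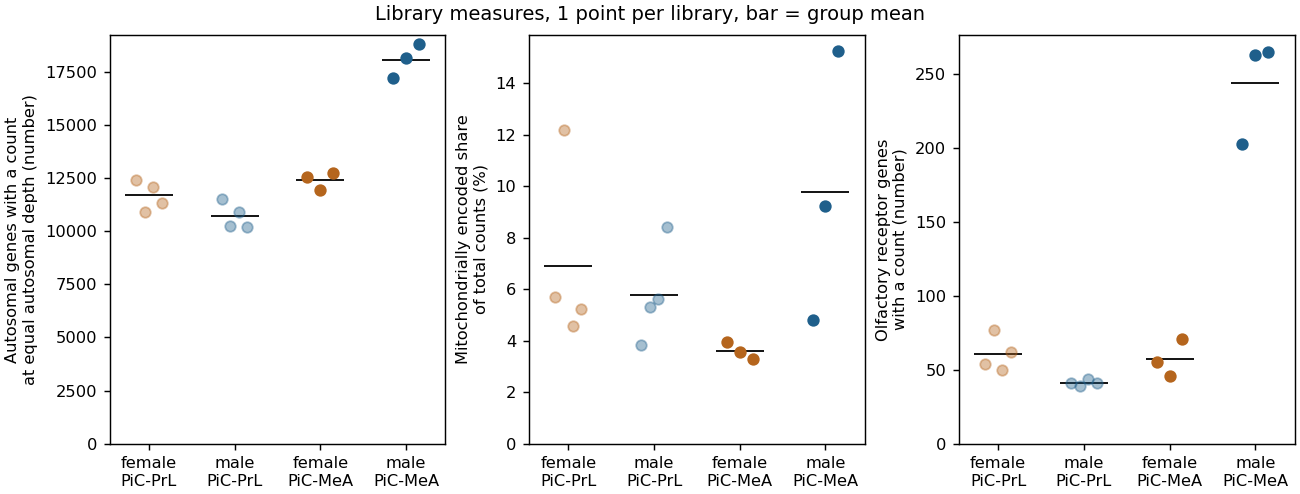
Autosomal genes with a count after thinning to equal autosomal depth (number, left), mitochondrially encoded share of total counts (%, middle) and olfactory receptor genes with a count (number, right) in each of the 14 libraries, with bars at the group means. The 3 male PiC-MeA libraries lie above all 11 others in the left and right panels, with 17228 to 18814 genes and 203 to 265 receptor genes.

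No autosomal gene passed. By edgeR's quasi-likelihood test with Benjamini-Hochberg adjustment 0 of 12607 genes (0%) had an adjusted p under 0.05, and the smallest was 0.0849. An unadjusted p under 0.05 was found for 2024 genes, 1483 with a higher value in male neurons (11.8%) and 541 with a lower one (4.29%). This split moved with the settings. With 10 counts required in at least 4 of the 6 libraries 966 genes had such a p, 550 of them higher, and with upper-quartile scaling 1944 had, 1625 of them higher. Other tools made calls on the same counts. The DESeq2 Wald test called 1220, 1022 higher (8.11%) and 198 lower (1.57%), and limma voom with quality weights called 928, 830 higher (6.58%) and 98 lower (0.777%). These 2 sets shared 740 genes, 60.7% of the DESeq2 calls and 79.7% of the voom calls. All 3 male libraries lay above all 3 female libraries for 2127 genes (16.9%), and below them for 1190 (9.44%). Fitted changes, always given as male minus female on the log2 scale, were positive for 6632 genes and negative for 5975, with a median of 0.08.

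**Figure D2:**
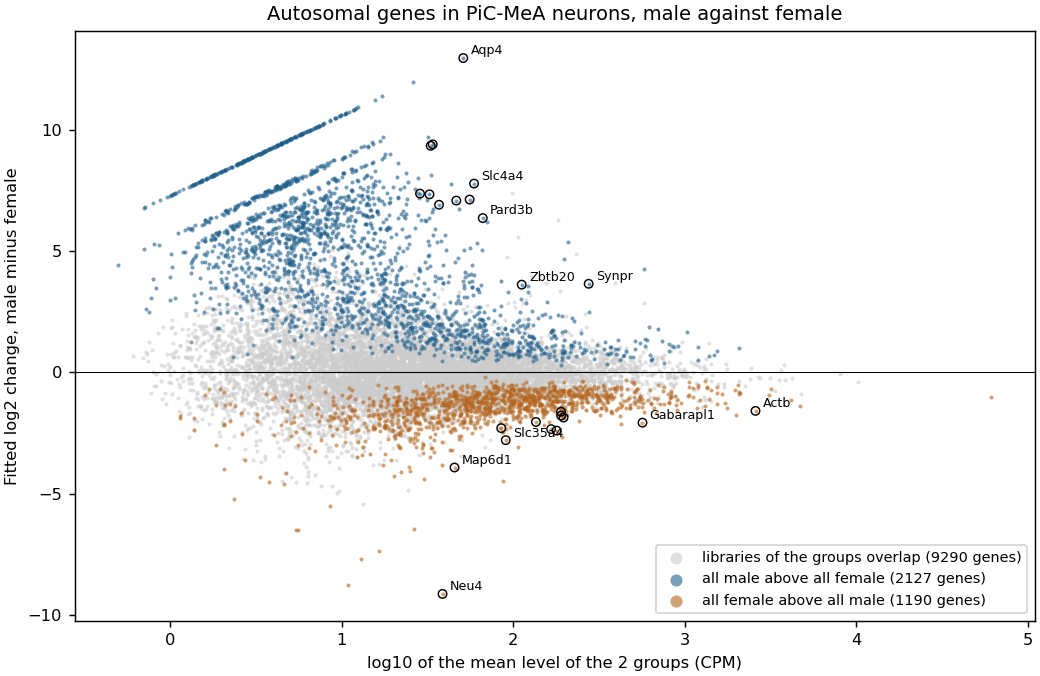
Fitted log2 change, male minus female, against log10 of the mean level (CPM) for the 12607 genes tested; circles mark the 24 genes with the smallest p, 10 of them named. Genes whose male libraries all lie above the female ones (2127) reach large changes at low levels, while those whose female libraries all lie above (1190) gather at small changes and higher levels.

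The 12 genes with the smallest p among those higher in male neurons were Slc4a4, Aqp4, Synpr, Kcnh5, Patj, Iqcm, Slc39a12, Zbtb20, Malrd1, Pard3b, Oprm1 and Mecom. For all 12 the male libraries lay above the female ones. Since they were picked by p on these same counts, neither this nor the calls by other tools is separate support. Slc4a4, Aqp4, Kcnh5, Patj, Iqcm, Slc39a12 and Mecom had under 10 counts in every female library. Those genes passed the filter through the male libraries alone, and were not tested where 10 counts were required in at least 4 libraries. Female counts were 13, 5 and 7 for Malrd1, 3, 15 and 4 for Oprm1, and 11, 7 and 37 for Pard3b. The female libraries alone would not have passed these genes either, though they were tested under that stricter filter. Adjusted p of the 12 genes ran from 0.0849 to 0.126, so none passed by edgeR. DESeq2 called all 12 and voom 10, the exceptions being Malrd1 (adjusted p = 0.0619) and Pard3b (adjusted p = 0.0674).

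Slc4a4, the sodium bicarbonate cotransporter NBCe1, which is best known in the brain from astrocytes (chr5:88886818-89239653, plus strand), stood at 0.824, 0.278 and 0.481 CPM in the female libraries and at 57.6, 99.6 and 196 CPM in the male ones. Every male library was far above every female one, with a fitted change of 7.78 ± 0.90 (SE) and an adjusted p of 0.0849. Aqp4, the water channel of astrocyte endfeet (chr18:15389496-15410982, minus strand), had 0 counts in each female library and 471, 1809 and 383 counts in the male ones. The male mean was at least 371-fold higher than 3 counts per female library would give. Slc39a12, a zinc importer of astrocytes (chr2:14388316-14494977, plus strand), had 1, 0 and 2 counts in female and 271, 1096 and 300 counts in male libraries. These 3 genes are known mainly from astrocytes, and 2 of them are on the astrocyte list described further on.

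Synpr encodes synaptoporin, a protein of synaptic vesicles (chr14:13284780-13616340, plus strand). Its levels were 64.0, 33.3 and 24.8 CPM in the female and 431, 605 and 494 CPM in the male libraries, a change of 3.65 ± 0.48 with an adjusted p of 0.0849. It was well expressed in both sexes, and relative to their mean the male libraries differed among themselves by less than those of Slc4a4 did. Kcnh5, a voltage-gated potassium channel of the ether-a-go-go family (chr12:74897220-75177332, minus strand), had 0, 1 and 2 counts in female and 517, 460 and 534 counts in male libraries. Oprm1, the mu opioid receptor (chr10:6758506-7038198, plus strand), stood at 0.309, 1.39 and 0.320 CPM in female and at 25.7, 96.2 and 156 CPM in male libraries. Its change was 7.08 ± 1.13 with an adjusted p of 0.126.

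Zbtb20, a zinc finger repressor of the developing forebrain (chr16:42875881-43642602, plus strand), was at 23.0, 11.7 and 16.2 CPM in female and 124, 211 and 287 CPM in male libraries. The change was 3.61 ± 0.54, with an adjusted p of 0.108. Mecom, a zinc finger transcription factor also called Evi1 (chr3:29951296-30548008, minus strand), was at 0.412, 0.185 and 0.400 CPM in female and at 57.2, 20.5 and 93.2 CPM in male libraries. Patj and Pard3b belong to the complexes that set cell polarity and tight junctions. Patj (chr4:98395785-98719603) stood at 0.185 to 0.561 CPM in female and 38.4 to 95.1 CPM in male libraries, and Pard3b (chr1:61638824-62642284) at 0.648 to 2.96 and 40.7 to 234 CPM. Iqcm (chr8:75448694-75984503) and Malrd1 (chr2:15526479-16255555) were at most 0.721 and 1.34 CPM in the female libraries and at least 40.0 and 27.2 CPM in the male ones.

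The 12 genes lower in male neurons with the smallest p were Neu4, Gabarapl1, Map6d1, Actb, Nudt3, Ganab, Prepl, Hpca, Slc35a4, Golt1b, Rack1 and Cdc37. The female libraries lay above the male ones for all 12, which were likewise picked by p on these counts. Neu4 passed the filter through the female libraries alone. Their adjusted p ran from 0.0849 to 0.128 by edgeR, and both DESeq2 and voom called all 12. Map6d1 had a fitted change of -3.93 ± 0.71, and those of the other genes besides Neu4 lay between -2.80 for Slc35a4 and -1.59 for Actb.

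Neu4, a sialidase that trims sialic acid from glycoproteins and gangliosides (chr1:94020451-94028334, plus strand), had 273, 536 and 1925 counts in the female libraries and 1 count in each male library. Gabarapl1, an autophagosome protein of the Atg8 family (chr6:129533160-129542346, plus strand), stood at 836, 1056 and 859 CPM in female and at 262, 219 and 170 CPM in male libraries. The groups were far apart beside their spread, with a change of -2.08 ± 0.34 and an adjusted p of 0.126. Map6d1, a palmitoylated protein that stabilises microtubules (chr16:20233303-20241358, minus strand), was at 58.6, 96.9 and 101 CPM in female and 4.10, 5.62 and 7.14 CPM in male libraries. Actb, the beta actin of the cytoskeleton (chr5:142903115-142906754, minus strand), was at 4271, 3802 and 3578 CPM in female and 1482, 1523 and 859 CPM in male libraries.

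Hpca encodes hippocalcin, a neuronal calcium sensor (chr4:129111570-129122036, minus strand). It was at 319, 196 and 389 CPM in the female and 78.5, 68.5 and 23.6 CPM in the male libraries, a change of -2.40 ± 0.54 with an adjusted p of 0.128. Ganab, a glucosidase that trims glycans in the endoplasmic reticulum (chr19:8898071-8916672), stood at 113 to 189 CPM in female and 23.6 to 33.9 CPM in male libraries. Golt1b, a Golgi transport protein (chr6:142387221-142403858), was at 229 to 317 and 82.9 to 108 CPM. Slc35a4, a sugar-nucleotide transporter family member of the Golgi (chr18:36679215-36683861), was at 144 to 170 CPM in female and 7.33 to 35.1 CPM in male libraries. In each of these genes the lowest female library was above the highest male one.

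Rack1, a scaffold protein of the small ribosomal subunit (chr11:48800332-48806434), was at 203 to 248.7 CPM in female and 27.0 to 70.1 CPM in male libraries. Cdc37, the cochaperone that hands kinases to Hsp90 (chr9:21133222-21149982), was at 187 to 355 and 25.8 to 92.0 CPM. Prepl, a serine hydrolase related to prolyl endopeptidase (chr17:85063470-85090241), was at 247 to 338 and 67.2 to 113 CPM, and Nudt3, a phosphatase of inositol pyrophosphates (chr17:27579382-27623495), at 220 to 359 and 68.2 to 95.2 CPM. No source used here says whether the counting used strand. Reads from exons of Gabarapl1, Map6d1, Prepl, Hpca, Slc35a4, Rack1, Pard3b, Oprm1, Mecom and Zbtb20 could therefore not be told from those of annotated genes on the opposite strand, and Nudt3 shares exons with a readthrough transcript.

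**Figure D3:**
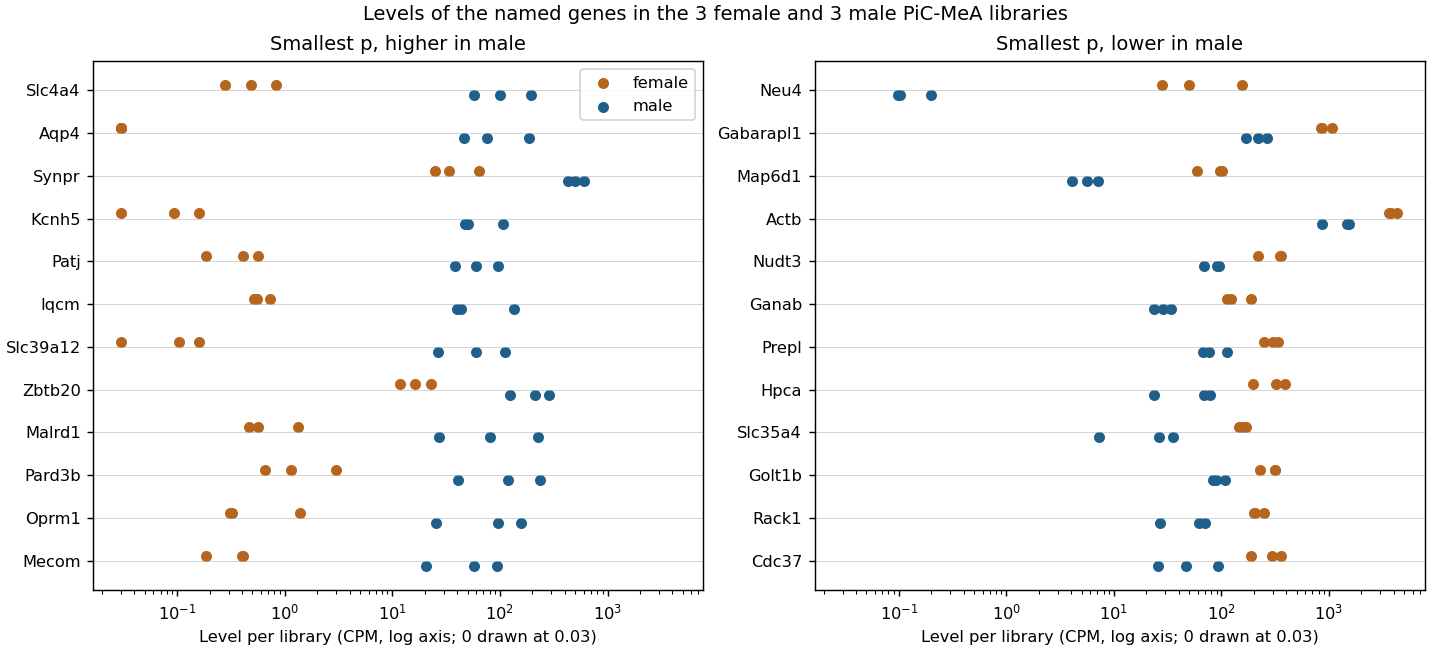
Levels (CPM, log axis) in the 3 female and 3 male PiC-MeA libraries of the 12 genes higher (left) and the 12 lower (right) in male neurons with the smallest p; points at 0.03 stand for 0 counts. The sexes do not overlap for any of the 24, and all genes on the left but Synpr and Zbtb20 lie under 3 CPM in the female libraries while those on the right, other than Neu4 and Map6d1, stay above 7 CPM in both.

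The 8 PiC-PrL libraries give the range these genes took in the other projection, on the scale of a fit over all 14 libraries. Of the 12 genes higher in male PiC-MeA neurons, 3 (Patj, Iqcm and Malrd1) lay in the male PiC-MeA libraries above all 11 others, where 6.46% of genes did so. Malrd1 was at 23.2 to 176 CPM there, at most 1.19 CPM in female PiC-MeA and at most 1.43 CPM in PiC-PrL libraries. The other 9 reached male PiC-MeA levels in at least 1 PiC-PrL library. For 2 of them, Kcnh5 and Zbtb20, it was the female PiC-MeA libraries that lay below all others, where 0.301% of genes did. Zbtb20 ran from 10.9 to 20.5 CPM in female PiC-MeA, 105 to 225 CPM in male PiC-MeA and 55.9 to 948 CPM in PiC-PrL libraries. The 12 genes had been picked by p between male and female PiC-MeA libraries. Shares over all genes, here and for the lower genes, are therefore too low as a background. Of all genes 814 lay in male PiC-MeA libraries above all 11 others, beside 2127 that lay above the female PiC-MeA ones.

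Of the 12 lower genes, 6 lay in male PiC-MeA neurons below all 11 others, where 1.98% of genes did. These were Gabarapl1, Actb, Nudt3, Hpca, Golt1b and Rack1. Of all genes 250 lay so, beside 1190 with all female above all male PiC-MeA libraries, a trait all 12 shared. Gabarapl1 was at 134 to 224 CPM in male PiC-MeA, 744 to 982 CPM in female PiC-MeA and 545 to 1295 CPM in PiC-PrL libraries. Ganab was the 1 gene of the 12 for which female PiC-MeA neurons lay above all others (background 0.611%), at 103 to 175 CPM against at most 82.3 CPM in PiC-PrL. Neu4 ranged from 0 to 47.1 CPM over the PiC-PrL libraries, against 25.03 to 140.5 CPM in female and 0.0833 to 0.156 CPM in male PiC-MeA libraries.

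Whether the sex change itself differed by projection was tested as an interaction in the same fit. By edgeR 0 of 14039 genes passed for it, 2206 had an unadjusted p under 0.05, and no gene passed for sex within PiC-PrL. For Gabarapl1 the sex change was 0.51 ± 0.30 in PiC-PrL, and the interaction was -2.72 ± 0.46 with an adjusted p of 0.151. For Oprm1 the PiC-PrL change was -7.18 ± 2.04, of opposite sign to that in PiC-MeA, and the interaction was 14.08 ± 3.18 with an adjusted p of 0.151. Zbtb20 had a PiC-PrL change of -1.64 ± 0.67 and an interaction of 5.11 ± 1.07, again with an adjusted p of 0.151. Map6d1 had a change of the same sign in PiC-PrL, -3.71 ± 1.96, with an interaction of -0.37 ± 2.73.

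Long genes tended to higher and short genes to lower values in male neurons. The 12 higher genes spanned a median of 342 kb of genome from 5′ to 3′ end and the 12 lower ones 9.83 kb. Over all genes tested, cut into 5 bins of equal number by span, the median change was -0.63 for spans up to 9.61 kb, -0.38, -0.03 and 0.53 in the next 3 bins, and 0.96 for spans over 98.5 kb. The male libraries lay above the female ones for 5.47% of the shortest bin and for 34.8% of the longest, and below them for 19.2% and 2.10%. When this trend with span was taken out of the counts of each library before fitting, the changes of the 24 genes kept their sign, with 6.48 for Slc4a4 and -1.385 for Gabarapl1. Those of Actb, Slc35a4 and Rack1 shrank by more than 1.5 times, to -0.72, -1.79 and -1.28. Again 0 genes passed, with 1980 at an unadjusted p under 0.05.

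**Figure D4:**
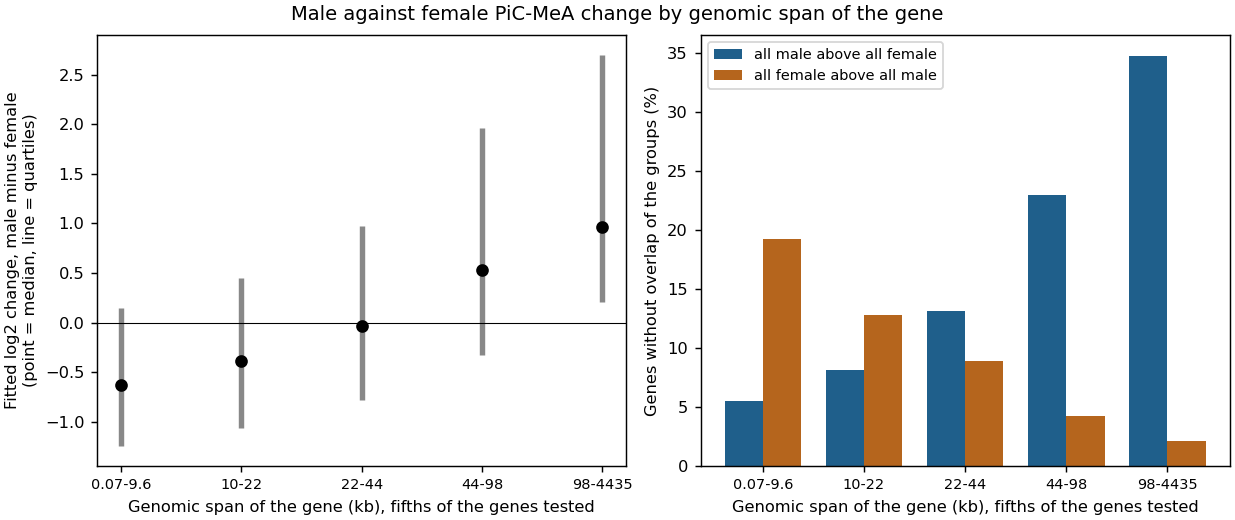
Fitted log2 change (left, median and quartiles) and percentage of genes whose groups do not overlap (right) in 5 bins of the 12607 genes by genomic span (kb). The median rises from -0.63 to 0.96 from the shortest to the longest bin, and genes with all male libraries above go from 5.47% to 34.8%.

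Most genes of housekeeping machinery had negative changes, that is, lower fitted values in male neurons. None of the members named here passed by edgeR, and lists are described by counts and medians beside the 9.44% of all genes whose female libraries all lay above the male ones and the median of 0.08. Of 69 cytosolic ribosomal protein genes tested, 65 had a negative change, with a median of -0.77, and for 34 the female libraries all lay above the male ones. Rpl7a, a protein of the large subunit, stood at 123, 141 and 111 CPM in female and 46.9, 45.8 and 26.6 CPM in male libraries, a change of -1.65 ± 0.49 that was -0.77 without the span trend. Rpl34 was at 132, 111 and 76.9 against 43.3, 43.2 and 30.5 CPM. Ribosomal protein genes have many processed copies, so their reads may be split. These genes are short, with a median span of 3.3 kb, and with the span trend removed the ribosomal median was 0.06, the opposite sign.

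Energy metabolism followed the same direction. Of 72 nuclear-encoded genes of the respiratory chain and ATP synthase 64 were negative, with a median of -0.73, and 25 had all female libraries above. Sdhb, the iron-sulfur subunit of complex II, was at 536, 480 and 472 CPM in female and 280, 188 and 170 CPM in male libraries. Uqcrq, a subunit of complex III, was at 295, 272 and 231 against 145, 135 and 123 CPM. With the span trend removed the respiratory chain median was -0.14. Of 39 genes of glycolysis and the citric acid cycle 33 were negative, with a median of -1.004, and 17 had all female libraries above. Hk1, the hexokinase that starts glycolysis in brain, was at 150, 176 and 172 CPM in female and 68.9, 37.7 and 29.9 CPM in male libraries, and Pfkp, a phosphofructokinase, was at 432 to 1008 CPM in female and 171 to 332 CPM in male libraries. The median of this list was -0.76 without the span trend. DESeq2 called 7 and voom 8 of the 39 members lower, beside 1.57% and 0.777% of all genes. Neither called one higher, beside 8.11% and 6.58% of all genes.

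The 29 mitochondrially encoded genes that passed the filter in a fit of all chromosomes went the other way. All 29 had positive changes, with a median of 1.94. For 22 (75.9%) the male libraries lay above the female ones, beside 16.9% of autosomal genes in the main fit. These genes make up the mitochondrially encoded share of counts given above, so they are not separate from that library measure.

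Proteasome genes were mostly negative as well, and for chaperones the sign of the median turned with the setting. Of 43 proteasome genes 39 were negative, with a median of -0.80, and 17 had all female libraries above. Psmd13, a subunit of the regulatory lid, was at 165, 187 and 199 CPM in female and 92.8, 48.1 and 38.8 CPM in male libraries, and Psmc2, an ATPase of the base, at 375, 329 and 260 against 152, 191 and 140 CPM. Among 44 heat shock proteins and chaperonins 29 were negative, with a median of -0.28, and 6 had all female libraries above. Stip1, which links Hsp70 to Hsp90, was at 474, 659 and 430 CPM in female and 244, 182 and 99.1 CPM in male libraries. Without the span trend the proteasome median was -0.42 and that of the chaperones 0.12.

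Autophagy genes were mixed. Of 34 tested 22 were negative and 12 positive, with a median of -0.48, 9 with all female libraries above and 4 with all male libraries above. Beside Gabarapl1, its relative Map1lc3a, or LC3A, stood at 307, 193 and 287 CPM in female and 108, 50.2 and 28.9 CPM in male libraries. Sqstm1, the cargo receptor p62, was at 911, 787 and 506 against 380, 286 and 307 CPM.

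Cytoskeleton genes resembled the metabolic ones. Of 44 tubulins, microtubule-associated proteins and actins 35 were negative, with a median of -0.84, 18 with all female libraries above and 4 with all male libraries above. Tubb2a, a beta tubulin of neurons, was at 2544, 1699 and 1432 CPM in female and 1141, 549 and 492 CPM in male libraries. The median of this list was -0.65 without the span trend.

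Activity-regulated genes also had mostly negative changes. Of 34 immediate early genes 25 were negative, with a median of -0.61, and 7 had all female libraries above while 2 had all male libraries above. Bdnf, the neurotrophin that neurons make with activity, stood at 292, 243 and 154 CPM in female and 63.8, 42.5 and 101 CPM in male libraries, a change of -1.73 ± 0.48 with an adjusted p of 0.128. Egr1 was at 752, 381 and 373 CPM in female and within 206 to 219 CPM in male libraries. Dusp6, a phosphatase that switches ERK off, was at 437, 177 and 275 against 122, 100 and 133 CPM. Among 49 genes of the MAP kinase cascade the counts were nearly even, 7 with all female libraries above and 6 with all male libraries above. Over all genes these shares were 9.44% and 16.9%. Dusp3 was at 270, 569 and 544 CPM in female and 173, 171 and 125 CPM in male libraries, whereas Dusp16, a phosphatase of JNK, had 0 counts in each female library and 192, 351 and 93 in the male ones, at least 88.4-fold higher. The immediate early gene median was -0.16 without the span trend.

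Genes of synaptic contact and wiring were read against the 16.9% of all genes with all male libraries above. Of 52 synaptic adhesion genes 33 were positive, with a median of 0.33, 10 with all male libraries above, a share close to that of all genes, and 0 with all female libraries above. Cntnap2, a neurexin-like protein of axons, stood at 338, 641 and 492 CPM in female and 1275, 1011 and 2404 CPM in male libraries, a change of 1.67 ± 0.42 that was 0.73 without the span trend. Its relative Cntnap5b was at 30.1, 71.8 and 48.7 against 160, 170 and 239 CPM. Lrp1b, a large receptor of the LDL receptor family, was at 424, 132 and 386 CPM in female and 1036, 1062 and 1145 CPM in male libraries, and by the fit of 14 libraries it lay above all 11 others in male and below all others in female PiC-MeA neurons. All 3 genes had an adjusted p of 0.128. Genes of this list are long, with a median span of 418 kb, and with the span trend removed its median was -0.44, the opposite sign.

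Axon guidance genes had a median of 0.74, with 37 of 55 positive, 13 with all male libraries above and 1 with all female libraries above. Dcc, the netrin receptor, stood at 33.9, 40.0 and 37.2 CPM in female and 53.0, 445 and 332 CPM in male libraries, a change of 2.90 ± 0.70 that was 1.805 without the span trend. Male replicate 1 was close to the female libraries here and the other 2 far above. Cadherins and protocadherins had 19 of 27 positive and a median of 0.68. Cdh18 was at 5.87, 38.8 and 41.2 CPM in female and 141, 245 and 242 CPM in male libraries, while Cdh13 went the other way, at 336, 384 and 666 against 245, 205 and 134 CPM. Without the span trend the medians were -0.35 for axon guidance and -0.27 for the cadherins, both of opposite sign.

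Ion channel medians were positive, and their sign turned with the span trend removed. Of 51 potassium and HCN channel genes 30 were positive, with a median of 0.45, 7 with all male libraries above, a smaller share than the 16.9% of all genes, and 3 with all female libraries above. Beside Kcnh5, Kcnb2 was at 90.6, 22.04 and 165 CPM in female and 286, 284 and 308 CPM in male libraries. Of 30 sodium and calcium channel genes 19 were positive, with a median of 0.25, and 7 had all male libraries above. Nalcn, the sodium leak channel, was at 43.9, 35.2 and 45.6 against 71.3, 121 and 174 CPM. With the span trend removed the medians were -0.41 and -0.74.

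Glutamate receptor genes had a median of 0.54, with 17 of 26 positive, 9 with all male libraries above and 2 with all female libraries above. Grik1, a kainate receptor subunit, stood at 0.103, 1.67 and 3.36 CPM in female and 6.45, 62.3 and 154 CPM in male libraries. Grid1, a delta-type glutamate receptor, was at 48.7, 5.28 and 60.6 against 210, 187 and 262 CPM, and Grm3, a metabotropic receptor, at 30.0, 42.6 and 59.9 against 262, 98.7 and 88.6 CPM. The receptor median was -0.40 without the span trend, the opposite sign. Synaptic vesicle genes were even, with 28 positive and 26 negative of 54 and a median of 0.07. Beside Synpr, the release factor Unc13c was at 0.927, 7.69 and 10.6 CPM in female and 37.7, 119 and 166 CPM in male libraries.

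**Figure D5:**
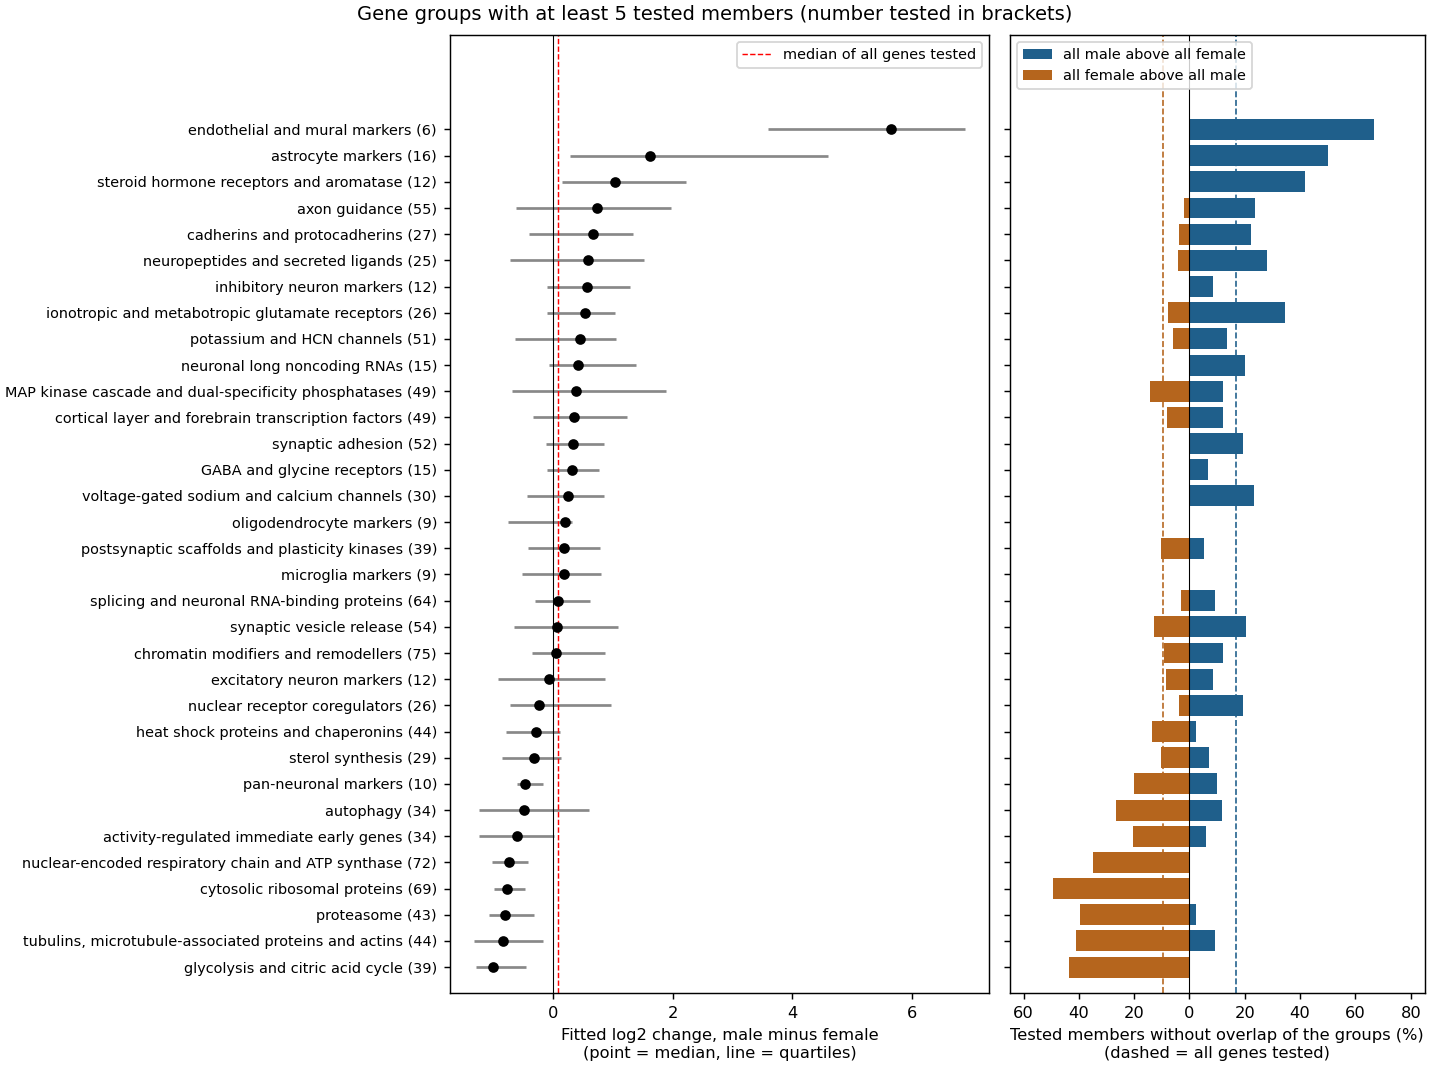
For each gene group with at least 5 tested members, the median fitted log2 change with its quartiles (left) and the percentage of members with all male above all female libraries (bars to the right) or the reverse (bars to the left); dashed lines give all genes tested (median 0.08; 16.9% and 9.44%). Medians run from -1.004 for glycolysis and citric acid cycle genes to 5.65 for 6 endothelial and mural markers, of which 1, at -0.79, was left where 10 counts were required in at least 4 libraries.

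Steroid receptors and aromatase were of interest because the series names sex hormones. Of the 12 members tested 9 had positive changes, with a median of 1.04. For 5 the male libraries lay above the female ones, as they did for 16.9% of all genes. Among these, Esrrb and Cyp19a1 had under 10 counts in every female library. Both passed the filter through the male libraries alone, so their direction was largely set by it. None passed by edgeR. The median was 0.30 without the span trend. Esr1, estrogen receptor alpha, stood at 15.6, 0.0926 and 53.3 CPM in female and 37.0, 80.1 and 51.7 CPM in male libraries. The groups overlapped and the change of 1.29 ± 1.37 was smaller than its error, with an adjusted p of 0.759. It was 0.25 without the span trend. Esr2, estrogen receptor beta, was left out by the filter, with 0, 0 and 2 counts in female and 5, 69 and 111 counts in male libraries.

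Pgr, the progesterone receptor, was at 48.4, 17.1 and 35.5 CPM in female and 30.8, 39.0 and 142 CPM in male libraries. Its change of 1.06 ± 0.78 rested on male replicate 3, without which it was 0.03, and was 0.17 without the span trend. Nr3c1, the glucocorticoid receptor, was at 191, 103 and 187 against 108, 186 and 332 CPM, a change of 0.38 ± 0.50 that became -0.14 without male replicate 3 and -0.77 without the span trend. Cyp19a1, which encodes aromatase, had 3, 0 and 1 counts in female and 83, 11 and 16 counts in male libraries, a change of 4.88 ± 1.79 with an adjusted p of 0.200. The estrogen-related receptors Esrrb and Esrrg, orphan receptors that do not bind estrogen, did not overlap between the sexes. Esrrb had 4, 0 and 0 against 132, 49 and 121 counts, and Esrrg was at 14.3, 40.2 and 14.3 against 48.5, 50.5 and 132 CPM.

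Coregulators of nuclear receptors had 11 positive and 15 negative members of 26 and a median of -0.23. Ncoa1, the steroid receptor coactivator SRC-1, stood at 62.8, 95.9 and 41.0 CPM in female and 143, 114 and 244 CPM in male libraries, a change of 1.33 ± 0.51 that was 0.01 without the span trend. Fkbp4, an immunophilin of the Hsp90 complex that carries steroid receptors, was at 219, 170 and 97.9 against 87.0, 54.6 and 74.5 CPM. Of 49 forebrain transcription factors 6 had all male and 4 all female libraries above, smaller shares than the 16.9% and 9.44% of all genes. Beside Zbtb20, the nuclear receptor Rora was at 38.2, 108 and 101 CPM in female and 290, 280 and 832 CPM in male libraries, and Klf13 at 350, 475 and 624 against 263, 243 and 165 CPM.

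Promoters of the named genes were read from RefSeq (GRCm38.p6), as windows of 250 bases before to 50 bases after each annotated start. The table held 17 promoters of 10 of the higher genes and 14 promoters of 10 of the lower genes. On both strands, AGGTCA was searched as the single arm of an estrogen response element and AGAACA as that of an androgen response element. The full estrogen element was searched as the last 5 letters of its arm followed after 3 bases by their reverse complement, and the full androgen element as its whole arm followed in the same way. The other motifs searched were the cAMP response element TGACGTCA, the GC box, whose letters were GGGCGG, and the TATA box, whose letters were TATAAA. A full androgen element always holds its single arm, and a full estrogen element can hold its own. The following windows are examples from the named genes that hold a single arm or a GC box, shown in capitals. Zbtb20 and Hpca do not lead their directions by p. Genes ranked before them, such as Patj and Ganab, also hold such motifs, as does the other Slc4a4 window. In the order given the windows lie at chr5:89027716-89028015 (plus strand), chr16:43247034-43247333 (plus strand), chr6:129532942-129533241 (plus strand) and chr4:129121254-129121553 (minus strand).
Slc4a4: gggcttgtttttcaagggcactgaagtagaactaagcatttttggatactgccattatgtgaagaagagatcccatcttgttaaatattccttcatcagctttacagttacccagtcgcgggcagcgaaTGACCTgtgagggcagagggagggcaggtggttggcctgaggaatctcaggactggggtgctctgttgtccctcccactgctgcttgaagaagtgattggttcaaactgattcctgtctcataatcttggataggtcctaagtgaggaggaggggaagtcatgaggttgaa
Zbtb20: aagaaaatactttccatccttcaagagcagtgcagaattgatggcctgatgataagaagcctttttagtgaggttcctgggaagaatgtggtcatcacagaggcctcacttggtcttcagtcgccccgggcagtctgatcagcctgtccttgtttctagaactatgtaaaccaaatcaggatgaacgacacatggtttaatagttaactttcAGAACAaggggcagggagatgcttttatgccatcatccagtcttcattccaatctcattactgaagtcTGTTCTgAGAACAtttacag
Gabarapl1: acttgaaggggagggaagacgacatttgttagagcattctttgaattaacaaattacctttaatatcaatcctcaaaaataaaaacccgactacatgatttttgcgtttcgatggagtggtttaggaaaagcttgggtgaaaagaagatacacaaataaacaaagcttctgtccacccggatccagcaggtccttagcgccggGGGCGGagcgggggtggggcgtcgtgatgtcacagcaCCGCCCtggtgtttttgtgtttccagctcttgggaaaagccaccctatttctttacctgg
Hpca: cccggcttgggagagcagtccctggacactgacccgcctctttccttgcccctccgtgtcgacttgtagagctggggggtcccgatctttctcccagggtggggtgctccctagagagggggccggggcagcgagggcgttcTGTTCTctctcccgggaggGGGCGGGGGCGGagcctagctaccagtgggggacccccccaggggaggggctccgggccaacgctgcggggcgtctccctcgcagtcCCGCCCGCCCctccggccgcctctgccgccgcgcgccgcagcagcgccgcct

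The Slc4a4, Zbtb20 and Hpca windows belong to starts that lie inside the genes as given above. The Slc4a4 window holds 1 AGGTCA on the minus strand, and the Zbtb20 window holds 3 AGAACA. The Gabarapl1 window holds 2 GC boxes and the Hpca window holds 4, with 1 AGAACA. Over the higher genes 2 of 17 promoters held AGGTCA (11.8%) and 3 held AGAACA (17.6%), beside 16.28% and 18.95% of 31396 autosomal promoters. Over the lower genes 1 of 14 held each. GC boxes were in 5 of the 17 promoters of higher genes (29.4%), in 9 of the 14 of lower genes (64.3%) and in 36.0% of all promoters. The full estrogen, androgen and cAMP elements were in 0 promoters of either set, beside 0.0733%, 0.00956% and 1.83% of all promoters. TATAAA was in 1 of 17 promoters of higher genes (5.88%), in 0 of 14 of lower genes and in 13.6% of all. Median GC content was 49.7% for the higher genes, 57.0% for the lower genes and 53.0% over all promoters. Several windows of 1 gene overlap, so promoters are not independent, and no test was made.

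Markers of other cells were read for the whole of each list, since they moved with some of the named genes. Of 16 astrocyte markers tested 12 were positive, with a median of 1.63, and for 8 the male libraries lay above the female ones, none the reverse. Over all genes tested these shares were 16.9% and 9.44%, which holds for the marker lists below as well. With 10 counts required in at least 4 of the 6 libraries, which takes out genes that pass through 1 sex alone, 12 were tested with a median of 0.79. The summed level of the whole list, without TMM scaling, was 1573 to 1889 CPM in female and 2809 to 4345 CPM in male libraries. Slc1a2, the glutamate transporter GLT-1, stood at 392, 202 and 204 CPM in female and 938, 777 and 1202 CPM in male libraries, and Slc1a3, the transporter GLAST, at 34.9, 77.3 and 117 against 166, 392 and 217 CPM. Gjb6, the gap junction protein connexin 30, had 0 counts in each female library, as Aqp4 did, and 172, 448 and 207 counts in the male ones, at least 125-fold higher. Both are defining markers of astrocytes, and the part of astrocyte RNA in the values of Slc4a4, Aqp4 and Slc39a12 was not tested.

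Endothelial and mural markers were low in both sexes. Of 12 such genes 6 were tested, 5 of them positive, and 4 had all male libraries above. With 10 counts required in at least 4 libraries 1 was left, at -0.79, so most passed through the male libraries. The summed level of the whole list, without TMM scaling, was 6.20, 47.7 and 3.04 CPM in female and 68.0, 77.6 and 175 CPM in male libraries. Tek, the angiopoietin receptor, had 4, 2 and 1 counts against 134, 330 and 195, and Pdgfrb, the pericyte receptor, 0 in each female library against 137, 75 and 23, at least 31.0-fold higher. The markers of oligodendrocytes and microglia, 9 tested in each list, had 0 genes without overlap. Cx3cr1, a microglial receptor, was at 2.68, 0.556 and 30.9 CPM in female and 57.1, 30.0 and 70.6 CPM in male libraries.

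Of 10 pan-neuronal markers tested 8 were negative, with a median of -0.46, and 2, Eno2 and Stmn2, had all female libraries above. With the number of genes detected as a covariate that median was 1.35. Markers of neuron types varied within the male group. Of 12 excitatory markers 6 were positive and 6 negative, with a median of -0.06. Slc17a7, the vesicular glutamate transporter of cortex, was at 91.7, 85.1 and 33.2 CPM in female and 63.3, 22.7 and 27.7 CPM in male libraries. Slc17a6, the transporter of subcortical neurons, had 0, 1 and 168 counts in female and 3, 2995 and 3890 counts in male libraries, so male replicate 1 was like the female ones and the other 2 were far above. Foxp2, a transcription factor, was at 0.412, 19.3 and 12.1 against 21.5, 103 and 217 CPM. Nrgn, neurogranin, went the other way, at 231, 245 and 512 against 142, 133 and 53.5 CPM.

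Of 12 inhibitory markers 8 were positive, with a median of 0.58, and 1 had all male libraries above. That gene was Adarb2, an RNA-binding protein of interneurons, at 3.81, 27.0 and 13.3 CPM in female and 79.3, 422 and 634 CPM in male libraries. Its change was 4.68 ± 0.94, with an adjusted p of 0.128, and its male PiC-MeA levels lay above those of all 11 other libraries. Gad1, the enzyme that makes GABA, was at 2.16, 40.4 and 3.60 CPM in female and 34.6, 197 and 1119 CPM in male libraries. Both Slc17a6 and Gad1 were high in male replicates 2 and 3. The summed inhibitory level, without TMM scaling, was 1211 to 1934 CPM in female and 2051 to 3041 CPM in male libraries. TMM factors were 0.9009 to 0.977 in the female and 1.054 to 1.1 in the male libraries. Scaling by them would raise the female sums and lower the male ones. The gap between 1934 and 2051 CPM is therefore not read as a difference between the sexes. The part of these markers in the other differences was not tested. A fit that added each library's number of detected genes as a covariate left 349 genes at an unadjusted p under 0.05, 150 of them higher in male neurons, and a smallest adjusted p of 1.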

How the data were processed

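RNA was measured in 14 libraries, and the deposited table holds raw read counts per gene, 1 column per library, not pooled or normalised by the authors. Per the submitters' processing notes, the tools were Trimmomatic 0.39, HISAT2 2.2.1, SAMtools and featureCounts 2.0.1 with build mm10; the sources used here name neither a strand setting nor an annotation release. Positions came from GENCODE M21, in which 55141 of 55401 genes matched. In the 6 PiC-MeA libraries, autosomal genes were kept by filterByExpr (minimum count 10, minimum total 15), scaled by TMM, and tested in R 4.3.3 by edgeR 4.0.16 (quasi-likelihood, robust option), with an adjusted p of 0.05 as threshold. DESeq2 1.42.0 and limma 3.58.1 were alternatives. The code was tested on simulated data. A count of 0 was taken to allow up to 3 counts per library, which covers counting error only. Medians of lists are over fitted changes; for the endothelial list the median with genes at 0 set to their bound was 4.74.

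Members and lists were chosen with earlier results of these data known. The genes named were the 12 per direction with the smallest p among protein-coding genes whose higher group had 10 or more counts in all its libraries, leaving out olfactory receptors, predicted genes and pseudogenes; up to 3 per list with the smallest p; and Esr1, Esr2, Pgr, Nr3c1 and Cyp19a1. Camk2a, Slc17a7, Slc1a2, Slc1a3 and the genes singled out from the other projection's ranges were chosen after their values were seen. Promoters on chromosome 18 were not used here.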

Additional observations from a re-analysis of the deposited data

Results flagged for a closer look

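The mitochondrially encoded share of counts, outside the autosomal comparison, was 4.80%, 9.23% and 15.3% in the male and 3.95%, 3.54% and 3.29% in the female PiC-MeA libraries, so the lowest male share of 4.80% lay above every female library. The PiC-PrL libraries ranged from 3.81% to 12.2%. Esr2 was left out by the filter on low counts but had 5, 69 and 111 counts in the male libraries, all above the 0, 0 and 2 counts of the female ones. Groups of 3 libraries were not examined for outlying samples.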

How the results depend on the processing

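Of 19 alternatives, 15 kept the count of 0 genes by edgeR, the 6 that leave out a library among them (lowest and highest 0). The count was 225 without a filter (151 higher, 74 lower, of 24921 genes), 1220 by DESeq2 and 928 by voom. The cause of these gaps was not tested. With a replicate block 8 genes were called, Erbb4, Gm10801, Gm10800, Slc4a4, Zic1, Adarb2, Synpr and Aqp4, all higher in male neurons. Same-numbered libraries had residual correlations of 0.02, -0.01 and 0.03, so the numbers were not taken to pair samples. The thinned counts raised the sex gap in autosomal genes detected from 4931 to 5655. Another scaling moved the median of all genes from 0.08 to 0.24 (upper quartile). Without the span trend Nr3c1 was -0.77. Leaving out a library moved Nr3c1 from -0.14 to 0.67. Of 1502 values of the 80 genes named, 31 reversed. With the number of genes detected as a covariate, a measure that does not overlap between the sexes, the sign turned, to 0.020 for Bdnf, 5.32 for Camk2a, -9.39 for Cx3cr1, -2.52 for Dcc, 0.85 for Eno2, -14.55 for Esr1, 1.69 for Fkbp4, 0.32 for Ganab, -4.56 for Grid1, -2.07 for Grik1, 0.45 for Hk1, -4.75 for Kcnb2, -1.996 for Lrp1b, -1.47 for Nalcn, -4.35 for Nr3c1, -3.33 for Pard3b, 0.73 for Pfkp, -4.59 for Pgr, 0.58 for Psmd13, 0.23 for Sdhb, -48.30 for Slc17a6, 5.39 for Slc17a7, -1.69 for Slc1a3, -1.72 for Slc39a12, 1.04 for Sqstm1, 1.34 for Stip1, 0.899 for Stmn2, 1.72 for Tubb2a and -0.0070 for Zbtb20. The medians of these lists turned sign in the same fit: 1.15 for glycolysis and the citric acid cycle, 0.13 for the respiratory chain, 0.42 for the proteasome, 0.39 for chaperones, 0.72 for tubulins and actins, -1.35 for potassium channels, -0.39 for glutamate receptors, 0.86 for nuclear receptor coregulators, 1.01 for excitatory markers and -3.14 for inhibitory markers. The excitatory median also turned positive with upper-quartile scaling, at 0.098, and with thinned counts, at 0.056. The synaptic vesicle median was -0.46 without the span trend. Without male replicate 3 the inhibitory median was 0.071, and without female replicate 3 that of the coregulators was 0.017. Depth limits genes at few counts: 3 counts are the most that a count of 0 allows, and with 3 libraries a group no exact test of 1 measure can go below 0.1.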

Other observations

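Of 19 neuronal long noncoding RNAs 15 were tested, 11 of them positive, with a median of 0.43 that was 0.04 without male replicate 3. For 3 all male libraries lay above, a share close to the 16.9% of all genes, and none showed the reverse. Before any filter, 877 autosomal genes had a count in each male and in no female library, 537 of them protein-coding, and 18 showed the reverse. At 10 or more counts in each library of the detecting sex these numbers were 183 and 0.

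Of 25 neuropeptide genes tested 2 were at 0 counts in each female library, and so passed the filter through the male libraries alone. Of all 39 autosomal members of the list 12 were at 0 in each female library and 3 at 0 in each male one. Nts, which encodes neurotensin, had 21, 48 and 157 counts in the male libraries, at least 46.0-fold higher, and Pnoc, which encodes the nociceptin precursor, had 31, 83 and 105, at least 39.1-fold higher. Of the 469 X-linked genes tested in a fit of all chromosomes, 79 (16.8%) had all male and 31 (6.61%) all female libraries above. Over autosomal genes in the main fit these shares were 16.9% and 9.44%. None of the X-linked genes passed by edgeR, and 70 had an unadjusted p under 0.05, beside 2024 of 12607 autosomal genes.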
